A study of Mus musculus with 12 samples.

Results

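The Pou3f genes Pou3f1, Pou3f2 and Pou3f3, which encode transcription factors, and the noncoding RNAs Pantr1 and Pantr2, which flank Pou3f3 on the chromosome, were followed in RNA of the rostral neocortex set against the caudal neocortex of mouse embryos. These 5 genes, of 15063 named genes on the array, were read by 6 of its 21998 probes, and all 5 passed the filter on missing values. They were taken by gene symbol, as a group chosen from earlier results of these data on rostral against caudal cortex. Because of that choice, the rostral over caudal ratios of all 5 are given as a description, with no test. Not every member was high rostrally. The rostral and caudal ends of the neocortex were dissected at E13.5, when cortical neurons are being made, and pooled from 3 embryos per the labels (the series' own design text sets the minimum lower and speaks of single litters). MF1, an outbred strain, and C57, an inbred strain that the design text names as C57Bl\6, gave 3 pools each. No allele or agent is named for any of them. Rostral and caudal RNA of a pool competed on 2 arrays with the dyes Cy3 and Cy5 exchanged, which gave 12 arrays, and each value averages the log2 ratios, rostral over caudal, of both arrays of a pool. A log2 ratio of 1 is a doubling, and 0 is the median of an array. The spread given is the SD over pools.

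Pou3f proteins bind DNA through a POU-specific domain joined to a homeodomain, and the octamer is their best known binding sequence. In the developing mouse cortex Pou3f2 and Pou3f3 act in overlapping ways in progenitors, in migrating neurons and in the production of upper-layer neurons. Pou3f1 is best known from myelinating Schwann cells and is also made in cortical projection neurons. Pantr1 and Pantr2 are long noncoding RNAs made from genes on either side of Pou3f3, and mice without the Pantr2 locus have defects of upper cortical layers.

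The promoters of 3 of the 5 members were found in the RefSeq promoter table (build GRCm38.p6), each running from 250 bases before the gene's start to 50 bases after it. They are shown because the data set a noncoding neighbour against Pou3f3 at 1 locus, and because Pou3f2 has probes that differ. Capitals mark the letters CCAAT on either strand (ATTGG where the match lies on the opposite strand), a motif picked after these sequences had been seen.
Pou3f3, chr1:42695518-42695817, plus strand: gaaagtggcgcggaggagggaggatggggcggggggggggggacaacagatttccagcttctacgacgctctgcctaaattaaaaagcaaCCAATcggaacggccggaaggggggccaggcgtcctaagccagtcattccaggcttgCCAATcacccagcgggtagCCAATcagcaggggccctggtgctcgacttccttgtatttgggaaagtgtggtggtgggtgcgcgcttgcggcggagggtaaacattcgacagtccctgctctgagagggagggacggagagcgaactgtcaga
Pantr2, chr1:42713405-42713704, minus strand: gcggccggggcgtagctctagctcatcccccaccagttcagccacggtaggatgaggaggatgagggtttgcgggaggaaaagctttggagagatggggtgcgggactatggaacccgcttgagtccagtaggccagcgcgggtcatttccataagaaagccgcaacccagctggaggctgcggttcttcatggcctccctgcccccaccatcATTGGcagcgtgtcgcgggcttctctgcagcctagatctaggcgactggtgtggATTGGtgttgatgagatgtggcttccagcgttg
Pou3f2, chr4:22488317-22488616, minus strand: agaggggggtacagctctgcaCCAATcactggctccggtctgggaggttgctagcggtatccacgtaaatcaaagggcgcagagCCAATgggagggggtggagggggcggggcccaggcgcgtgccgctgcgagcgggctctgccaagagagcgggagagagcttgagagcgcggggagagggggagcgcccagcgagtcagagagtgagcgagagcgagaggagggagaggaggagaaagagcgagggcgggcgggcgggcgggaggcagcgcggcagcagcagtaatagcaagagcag

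The Pou3f3 window held 3 matches to CCAAT, and 3.37% of the 32851 promoter windows held at least as many. The Pantr2 and Pou3f2 windows held 2 each, and 11.7% of windows held at least that many. At least 1 match was in 37.4% of windows. The octamer ATGCAAAT, searched on both strands, was in none of the 3 windows and in 1.74% of all windows, and TATAAA was in none of the 3 and in 13.6%. The G and C content was 60.3% for Pou3f3, 60.0% for Pantr2 and 67.7% for Pou3f2, above that of 71.4%, 70.5% and 86.8% of windows.

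The sign of every ratio is likely rather than known, because the files do not say which dye is the numerator. Cy5 over Cy3 was assumed, and on that reading Nr2f1, a nuclear receptor known for its caudal gradient, was below 0 in 6 of 6 pools at -1.14 ± 0.57 (SD, n = 6). Before arrays were turned, the deviations of a pool's arrays from their group means had Spearman correlations from -0.35 to -0.15 in 5 of 6 pools, the sign that exchanged dyes give, and 0.00 in C57 pool 3. After turning, the median gap between the arrays of a pool over all probes was 0.40 in MF1 and 0.71 in C57. Arrays of MF1 had between 19453 and 20997 values and those of C57 between 17998 and 19252, and the SD of ratios estimated from the median absolute deviation averaged 0.487 on MF1 arrays and 0.745 on C57 arrays. Each array held 1 strain, so strain and array set cannot be told apart. MF1 pool 3 went against the other MF1 pools over all features, with a Spearman correlation of -0.19 with each of them, while those correlated at 0.24 with each other. The C57 pools correlated at 0.01, 0.11 and 0.20 with each other, and pools of different strains at -0.07 to 0.21, so agreement between pools was low throughout. The files hold ratios and no signal levels, so neither the abundance of the members nor the presence of cortical markers could be checked, and fewer cells of a type cannot be told apart from less RNA per cell.

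Pantr1 was the member with the most even rostral excess. Its log2 ratio was 0.90, 0.70 and 0.81 in MF1 pools 1 to 3, and 0.96, 0.74 and 0.77 in C57 pools 1 to 3. All 6 pools lay above 0 in a narrow band, and the strains overlapped. The mean of 0.81 ± 0.10 (SD, n = 6) is a 1.76-fold rostral excess, above the mean of 99.8% of the 10596 features measured in every pool. Its SD was higher than that of 1.3% of these features, whose median SD was 0.35. On single arrays Pantr1 ran from 0.46 to 1.07, above 0 on 12 of 12, a pattern found in 0.253% of the 11071 probes measured on every array. It averaged 0.70 with rostral RNA in Cy5 and 0.93 with rostral RNA in Cy3, so the size moved with the dye by more than the spread of the pools while the sign did not. Without MF1 pool 3 its mean was 0.81.

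**Figure D1:**
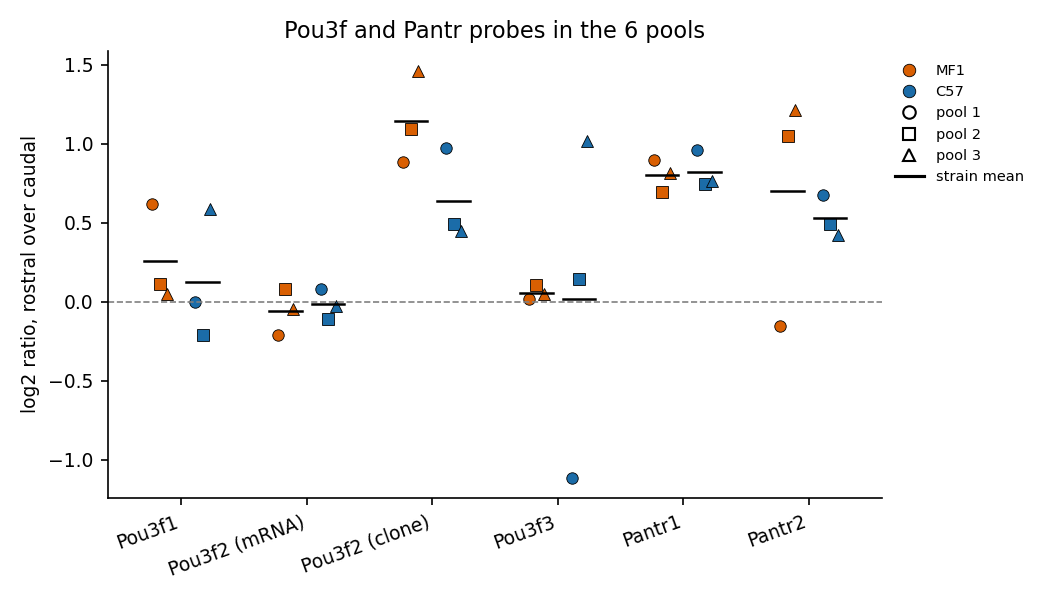
Log2 ratio of rostral over caudal cortex (vertical axis) for the 6 probes of the 5 genes, with MF1 pools in orange and C57 pools in blue, marker shapes for pools 1 to 3 and bars for the strain means. The Pantr1 points lie between 0.70 and 0.96, the Pou3f2 clone probe is above 0 in 6 pools, and the Pou3f2 mRNA probe stays near 0.

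Pantr2 was also high rostrally, with 1 pool apart. Its ratios were -0.15, 1.05 and 1.22 in MF1 pools 1 to 3, and 0.67, 0.49 and 0.42 in C57 pools 1 to 3. The MF1 pools spanned both the lowest and the highest value, and the C57 pools lay between them. The mean was 0.62 ± 0.49 (SD, n = 6), a 1.53-fold rostral excess, above the mean of 99.2% of features, and 0.77 without MF1 pool 1. The low pool was low on both of its arrays, at -0.34 with rostral RNA in Cy5 and 0.03 with rostral RNA in Cy3. The other pools were above 0 on both arrays, which made 11 of 12 arrays. At least 11 of 12 arrays above 0 were found for 1.18% of probes.

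Pou3f3, the gene between both noncoding RNAs, had a mean near 0 in its own probe, with C57 pools far apart. Its ratios were 0.02, 0.11 and 0.05 in MF1 pools 1 to 3, and -1.11, 0.14 and 1.02 in C57 pools 1 to 3. The MF1 pools were tight around 0, and the C57 pools spread widely on both sides of it. The mean was 0.04 ± 0.68 (SD, n = 6), above that of 54.6% of features, with an SD larger than that of 86.5% of them. In C57 pool 2 the arrays disagreed in sign, at 0.89 with rostral RNA in Cy5 and -0.60 with rostral RNA in Cy3. The other C57 pools kept their sign on both arrays, at -0.69 and -1.54 in pool 1 and at 0.51 and 1.52 in pool 3. The mean of Pou3f3 was 0.27 without C57 pool 1 and -0.16 without C57 pool 3, so each of these pools decides its value.

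Within pools, Pantr1 exceeded Pou3f3 by 0.88, 0.59 and 0.77 in MF1 and by 2.07, 0.60 and -0.25 in C57, which is higher in 5 of 6 pools. Pantr2 exceeded Pou3f3 in 4 of 6 pools, with a mean gap of 0.58 ± 0.89 (SD, n = 6), smaller than its spread. The noncoding RNAs also differed between themselves. The gap of Pantr1 over Pantr2 was 1.05, -0.35 and -0.40 in MF1 and 0.28, 0.25 and 0.34 in C57. It changed sign among the MF1 pools and held its sign in the C57 pools.

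The transcript 2900092D14Rik, a noncoding RNA that RefSeq places between Pou3f3 and Pantr2, had ratios of 1.07 and 0.51 in MF1 pools 1 and 3 and no value in pool 2, and 0.80, -0.14 and -0.03 in C57 pools 1 to 3. Its mean was 0.44 ± 0.52 (SD, n = 5), with 3 pools above 0. Mrps9, a mitochondrial ribosomal protein gene on the far side of Pantr2, averaged 0.05 ± 0.24 (SD, n = 6), with 3 pools on either side of 0. Beside Pou3f1, the gene Utp11, which acts in ribosome assembly, averaged 0.09 ± 0.21 and the LIM protein gene Fhl3 averaged 0.03 ± 0.29 (SD, n = 6 each). These 4 were the tested genes among 20 that lie within 3 places of a member in RefSeq order. None of the 4 passed for rostral against caudal cortex in the limma fit of all features, where 0 of 14418 passed (0%). Whether a probe of this locus also reads an overlapping transcript was not tested.

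**Figure D2:**
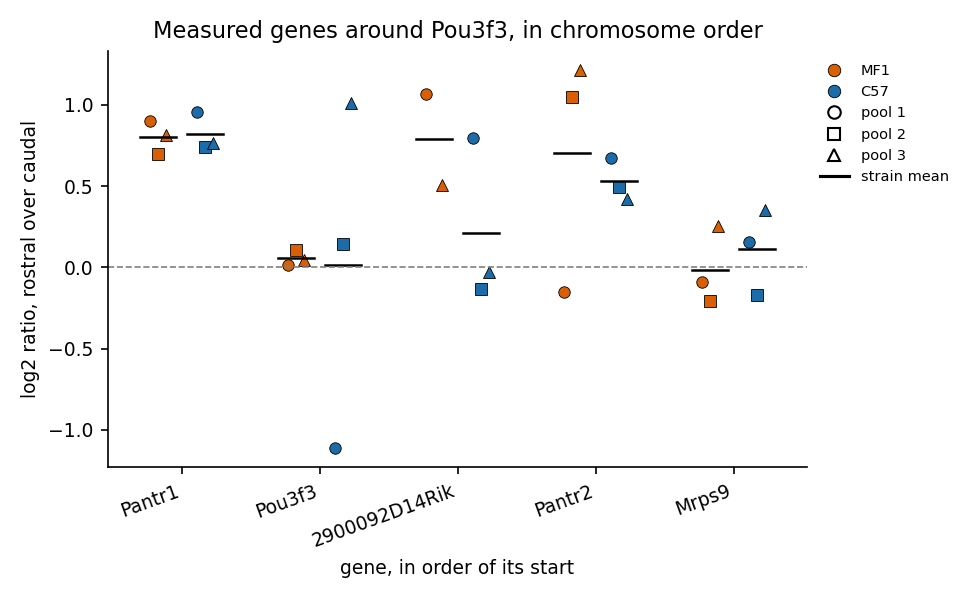
Log2 ratio of rostral over caudal cortex (vertical axis) for the measured genes around Pou3f3, ordered by their start in RefSeq and not to scale, with MF1 pools in orange, C57 pools in blue and bars for strain means. Pantr1 and most Pantr2 points lie above 0, Pou3f3 lies around 0 with 2 C57 pools far from it, and Mrps9 lies around 0.

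Pou3f2 had a pair of probes, and they did not give the same ratio. The probe annotated through a cDNA clone read 0.88, 1.10 and 1.46 in MF1 pools 1 to 3, and 0.97, 0.49 and 0.45 in C57 pools 1 to 3. All 6 pools were above 0, and MF1 pool 3 was the highest. The mean was 0.89 ± 0.38 (SD, n = 6), a 1.86-fold rostral excess, above that of 99.8% of probes, and 0.78 without MF1 pool 3. It was above 0 on 12 of 12 arrays, from 0.21 to 1.53, with means of 0.92 with rostral RNA in Cy5 and 0.87 with rostral RNA in Cy3.

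The probe annotated through the Pou3f2 RefSeq mRNA read -0.21, 0.08 and -0.04 in MF1 pools 1 to 3, and 0.08, -0.11 and -0.03 in C57 pools 1 to 3. It stayed close to 0 in every pool, with 2 pools above and 4 below. Its mean was -0.04 ± 0.11 (SD, n = 6), above that of 39.6% of probes, with 4 of 12 arrays above 0. The clone probe exceeded it by 1.10, 1.02 and 1.51 in MF1 and by 0.89, 0.60 and 0.47 in C57. That mean gap of 0.93 ± 0.37 (SD, n = 6) is wide for probes that share a symbol. Of 390 genes with 2 probes measured in every pool, 2 (0.513%), Pou3f2 included, had a gap at least as large, and the median gap was 0.17. A gap of 1 sign in 6 of 6 pools was found for 4.62% of these genes. Pou3f2 is in a group chosen with these ratios known, so its place among these genes is a description, with no test. The sources used here do not place the probes on the transcript. The mean of both probes, 0.43 ± 0.21, therefore describes neither of them.

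**Figure D3:**
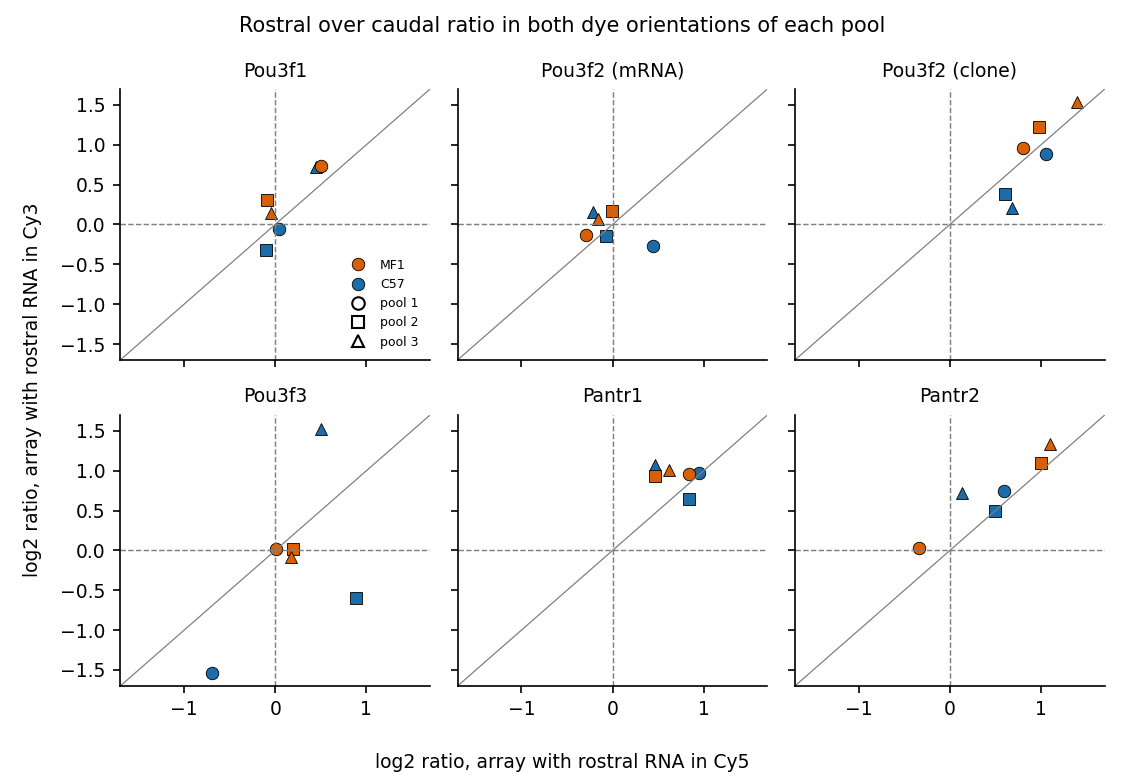
Each panel sets the log2 ratio on the array with rostral RNA in Cy3 (vertical axis) against that on the array with rostral RNA in Cy5 (horizontal axis) for 1 probe, 1 point per pool, MF1 in orange and C57 in blue, with a line of equality. Points of Pantr1 and of the Pou3f2 clone probe lie above 0 on both axes in 6 of 6 pools, while Pou3f3 has C57 points far apart.

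Pou3f1 had a weak and uneven ratio. It read 0.62, 0.11 and 0.05 in MF1 pools 1 to 3, and -0.0038, -0.21 and 0.58 in C57 pools 1 to 3. A single pool of each strain was high, and the others lay from -0.21 to 0.11. C57 pool 2 was below 0 on both arrays, at -0.10 with rostral RNA in Cy5 and -0.32 with rostral RNA in Cy3. Its mean of 0.19 ± 0.34 (SD, n = 6) was smaller than its spread, with 4 of 6 pools and 7 of 12 arrays above 0. It was 0.11 without MF1 pool 1 and also 0.11 without C57 pool 3.

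Ordered by mean over genes, Pantr1 (0.81) was followed by Pantr2 (0.62), Pou3f2 (0.43), Pou3f1 (0.19) and Pou3f3 (0.04). Each step between neighbours in that order was smaller than the larger SD of the pair. Above 0 in 6 of 6 pools were 2 of the 5 genes, Pantr1 and Pou3f2, against 3.47% of the 10596 features measured in every pool, and 0 of the 5 were below 0 in 6 of 6 pools, against 2.5% of features. The gene value of Pou3f2 averages both of its probes, and its mRNA probe was above 0 in 2 of 6 pools. Counted by probe, 2 of the 6 were above 0 in every pool, against 3.49% of probes. They were the probe of Pantr1 and the clone probe of Pou3f2. The members were chosen from this contrast, so nothing is read from these counts. The 3 probes with means above 0.6 were all annotated through cDNA clones and belong to the probe series whose identifiers carry the letters EXT. The 3 with means from -0.04 to 0.19 were annotated through RefSeq mRNAs and lie outside that series. Uneven pools were found in both sets, with an SD of 0.49 for Pantr2 and 0.68 for Pou3f3. Among the 11071 probes measured in every pool, the EXT probes had a median ratio of 0.00 over 6121 probes, against 0.03 over the 4950 others. They were above 0 in 6 of 6 pools for 2.63%, against 4.55% of the others. The part of probe design in the difference among members was not tested.

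**Figure D4:**
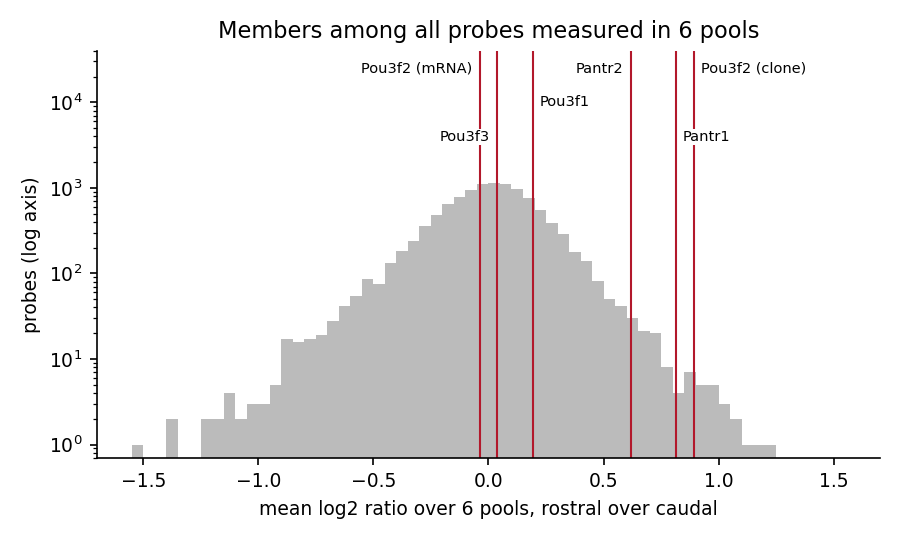
Number of probes (vertical log axis) by mean log2 ratio of rostral over caudal cortex over 6 pools (horizontal axis) for the 11071 probes measured in every pool, with red lines at the 6 member probes. The Pou3f2 clone probe, Pantr1 and Pantr2 stand in the upper tail at 0.89, 0.81 and 0.62, and the other 3 lines lie between -0.04 and 0.19.

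The strain difference was not used to choose the members and was tested in the limma fit of all features. None of the 5 ratios differed between MF1 and C57 past the threshold, nor did any feature of 14418 (0%), though 879 had an unadjusted p under 0.05. Pantr1 had the narrowest interval, with 0.80 ± 0.10 in MF1 and 0.82 ± 0.12 in C57 (SD, n = 3 pools each). Its difference, MF1 minus C57, was -0.02, with a 95% interval from -0.51 to 0.47 (limma, adjusted p = 0.998). As the mean of both probes, Pou3f2 had 0.54 ± 0.19 in MF1 and 0.31 ± 0.19 in C57. The difference was 0.23, from -0.31 to 0.78 (limma, adjusted p = 0.962). Pantr2 had 0.70 ± 0.75 in MF1 pools, against 0.53 ± 0.13 in C57 pools, and its difference of 0.17 had an interval from -0.75 to 1.10 (limma, adjusted p = 0.989).

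Pou3f1 had 0.26 ± 0.31 in MF1 and 0.12 ± 0.41 in C57, and a difference of 0.14, from -0.58 to 0.85 (limma, adjusted p = 0.989). Pou3f3 had 0.06 ± 0.05 in MF1 and 0.01 ± 1.07 in C57, and a difference of 0.04, from -1.18 to 1.27 (limma, adjusted p = 0.998). The intervals of Pou3f3 and Pantr2 still hold differences of 1 log2 unit in at least 1 direction, so these pools do not show that the strains are alike. The clone probe of Pou3f2 had the largest strain gap among member probes, 1.15 ± 0.29 in MF1 and 0.64 ± 0.29 in C57, a difference of 0.51 that did not pass when each probe was fitted on its own (limma, adjusted p = 0.908).

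The other POU genes averaged between -0.86 and 0.33. Of 13 listed, 7 were tested, and 0 passed in either direction for rostral against caudal cortex (limma, with 0% of all features called). Pou3f4, the remaining gene of the Pou3f class, known from the inner ear and the ventral forebrain, averaged -0.04 ± 0.12 (SD, n = 6), with 3 pools above 0. Pou6f1, expressed in brain, averaged 0.33 ± 0.38, Pou2f2, known from B lymphocytes, 0.22 ± 0.37, and Pou4f1, a factor of sensory neurons, 0.20 ± 0.36, each with 5 of 6 pools above 0. Pou5f1, the pluripotency factor, averaged 0.17 ± 0.22, Pou2f3, known from tuft cells, 0.05 ± 0.19 and Pou5f2 -0.86 ± 1.15 (n = 5). The list had a median of 0.17, against 0.01 over all 14418 features.

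Sox factors, which bind DNA together with POU factors in neural progenitors, lay close to 0. Of 13 listed, 10 were tested with 0 past the threshold in either direction, where 0% of all features passed. Those tested had a median of 0.05 and a range from -0.10 to 0.17. Sox2, the progenitor partner, averaged 0.05 ± 0.19 (SD, n = 6) with 2 of 6 pools above 0. Sox11 averaged 0.05 ± 0.24 and Sox4, which like Sox11 acts in young neurons, 0.17 ± 0.35, with 3 of 6 pools above 0 for each.

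Genes described elsewhere as targets of Pou3f factors or as acting downstream of them gave 0 of 11 tested past the threshold, where 0% of all features passed. Their median was 0.14, with a range from -0.94 to 0.53. Means above 0 were 9 of 11, against 51.4% of all features. They were also 8 of 10 for Sox partners, 14 of 19 for radial glia and 10 of 13 for intermediate progenitors. For upper and deep layer neuron factors they were 7 of 10 and 8 of 13. Of the targets, Nes, Fabp7, Hes5, Dll1, Eomes, Neurog2 and Tbr1 are also on those cell lists. Hes5, a Notch effector of progenitors, was above 0 in 6 of 6 pools, with 0.09 ± 0.09 in MF1 and 0.89 ± 0.38 in C57 (SD, n = 3 each). The lowest MF1 pool of Hes5 was at 0.01. Fabp7, a fatty acid binding protein of radial glia whose enhancer binds Pou factors, averaged 0.21 ± 0.35, and Nes, the progenitor filament protein nestin, 0.14 ± 0.21. Dll1, a Notch ligand, averaged 0.13 ± 0.72, Dab1, which transmits the Reelin signal to migrating neurons, 0.01 ± 0.24, and Eomes, the factor of intermediate progenitors, 0.03 ± 0.36. Each of these 6 apart from Hes5 had pools on both sides of 0. The 2 means below 0, named after their values were seen, were those of Cdk5r2, an activator of the kinase Cdk5, at -0.94 ± 1.15 with 0 of 5 pools above 0, and Egr2, a zinc finger factor of myelinating Schwann cells, at -0.28 ± 0.43 with 2 of 6 pools above 0.

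**Figure D5:**
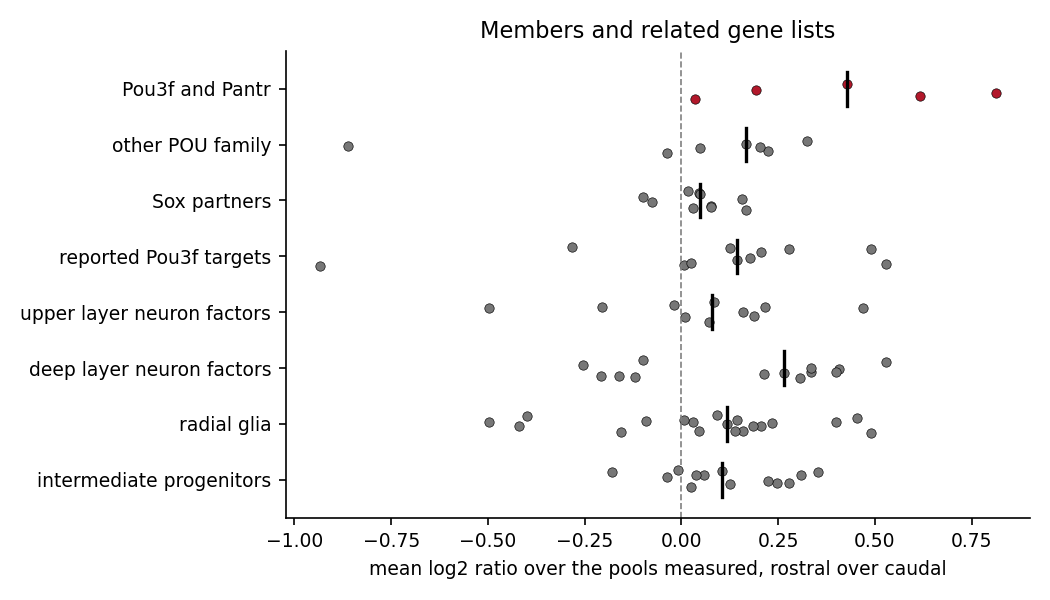
Mean log2 ratio of rostral over caudal cortex (horizontal axis) for each tested gene of the Pou3f and Pantr group (red, top) and of 7 related lists (grey), with a black bar at each list's median. The medians lie between 0.05 for Sox partners and 0.27 for deep layer neuron factors, and at 0.43 for the Pou3f and Pantr genes, a group chosen with these ratios known.

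Lists of cortical cells had medians of 0.08 over 10 upper layer neuron factors, 0.27 over 13 deep layer neuron factors, 0.12 over 19 radial glia genes and 0.11 over 13 genes of intermediate progenitors. Pax6, the radial glia factor, averaged 0.40 ± 0.18 (SD, n = 6), above 0 in 6 of 6 pools. The upper-layer factors Cux1 and Cux2 averaged 0.16 ± 0.49 and 0.47 ± 0.48, and the deep-layer factors Tbr1 and Fezf2 0.53 ± 0.66 and -0.21 ± 0.27. Neurog1, a proneural factor, averaged 0.11 ± 0.19. The radial glia list held 3 genes above 0 in 6 of 6 pools and 3 below 0 in 6 of 6. Those above were Pax6, Hes5 and Ptn (0.45 ± 0.10). Those below were Lhx2 at -0.50 ± 0.13, the endothelin receptor Ednrb at -0.40 ± 0.31 and the matrix protein Tnc at -0.42 ± 0.21. In the deep layer list Bcl11b (0.41 ± 0.24) and Foxp1 (0.40 ± 0.15) were above 0 in 6 of 6 pools, with 0 below. In the list of intermediate progenitors these were Insm1 (0.31 ± 0.17) and Rnd2 (0.35 ± 0.15), again with 0 below. The upper layer list held 0 above and 1 below, Lhx2. All of these but Pax6 and Hes5 were named after their values were seen. Over all features measured in every pool the shares were 3.47% above and 2.5% below. Lists of other cells that a dissection can hold had medians of 0.08 over 16 genes of the ventral telencephalon, -0.06 over 18 of meninges and mesenchyme, -0.10 over 14 of choroid plexus and hem, -0.12 over 6 of red blood cells, -0.06 over 11 of blood vessels and -0.01 over 10 of microglia and macrophages. Ttr, the transthyretin of choroid plexus, averaged -0.92 ± 1.09, with 5 of 6 pools below 0 and C57 pool 1 at 1.19. Aqp1, a water channel there, averaged -0.61 ± 0.70, below 0 in 6 of 6 pools. The interneuron factors Dlx1 and Dlx2 averaged -0.03 ± 0.26 and 0.23 ± 1.01, and the collagens Col1a1 and Col1a2 -0.41 ± 0.64 and -0.08 ± 0.63. In the same lists, and named after their values were seen, Dlx5 was below 0 in 6 of 6 pools at -0.63 ± 0.32, while Zic1 at 0.78 ± 0.31 and Ogn, a matrix proteoglycan, at 0.43 ± 0.27 were above 0 in 6 of 6 pools on the list of meninges and mesenchyme. Hemoglobins Hba-a1 and Hbb-y averaged -0.05 ± 0.55 and -0.19 ± 0.65, endothelial Pecam1 and Cdh5 0.02 ± 0.33 and -0.06 ± 0.41. Of the microglial genes, Tyrobp averaged 0.26 ± 0.21, above 0 in 6 of 6 pools, and Aif1 0.00 ± 0.19. In these 10 lists 0 genes passed in either direction (limma, with 0% of all features called). Over pools, the list medians of the other cells ran from -0.44, for choroid plexus and hem, to 0.33, for red blood cells. The part of any of these cells in the ratios of the members was not tested.

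Named genes with the ratios most like those of a member were found by the root mean square difference over the 6 pools. For Pantr1 they were Rlbp1, a retinaldehyde carrier, with a difference of 0.18, Tagln2, an actin-binding protein, with 0.19, and Zic1, a zinc finger factor of the rostromedial forebrain that is also on the list of meninges and mesenchyme, with 0.25. Pantr1 itself stood 0.52 from Pantr2, 1.04 from Pou3f3 and 0.35 from the clone probe of Pou3f2. For Pantr2 the nearest genes were Avpi1 (0.22), Cdca8, a subunit of the chromosomal passenger complex (0.24), and Fam110a (0.28). For Pou3f2 they were the histone gene H2az2 (0.16), Cript (0.17) and 4930505M18Rik (0.17). These are near the mean of the Pou3f2 probes, which itself stood 0.50 from each probe, so they describe neither probe. For Pou3f1 they were the calcium channel gene Cacna1h (0.07), Gpr180 (0.10) and Rbpjl (0.11), and for Pou3f3 Foxf2 (0.15), Vsx1 (0.18) and Rhog (0.19). No member was among the 3 nearest genes of another.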

How the data were processed

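The deposited table held log2 ratios between the dyes of each array, as read from the values: signed, around 0, with a ceiling of 16.61. RNA was prepared with Trizol per the labels, and the cDNA was amplified with the SMART system according to the series' design. For scanning and normalization by the authors, no method is given in the sources used. This table had 0 columns of other samples. The 701 ceiling values were set missing, each array was centred on its median (array medians ran from -0.41 to 0.475), arrays with rostral RNA in Cy3 were turned, both arrays of a pool were averaged where both had a value, and probes of 1 symbol were averaged. Symbols came from the platform annotation, which gives 16864 probes 1 symbol, 139 several and 4995 none. A feature needed at least 2 pools per strain, which left 14418 of 20197. limma 3.58.1 (R 4.3.3) was fitted to the pool means, with Benjamini-Hochberg adjustment over all features at 0.05. Nothing in the labels says that pools came from separate litters, so p-values measure the spread between these pools. Neighbours came from the RefSeq gene table (GRCm38.p6), used for order alone. The members and lists were chosen with earlier results of these data known. The genes named by rule were the members, all tested POU genes and neighbours, and listed examples of the Sox and target lists. The rule also named the first 2 measured genes of each cell list and the 3 nearest genes per member. Outside it, Nr2f1 was named for the direction, and others were named after their values were seen, as marked where they appear.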

Additional observations from a re-analysis of the deposited data

How the results depend on the processing

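The means of Pantr1, Pantr2, Pou3f2 and the Pou3f2 clone probe kept their sign under every alternative run on Cy5 over Cy3 ratios. With every sign turned to Cy3 over Cy5 they would be -0.81, -0.62, -0.43 and -0.89, and that of Pou3f1 -0.19. Without centring, all features together had a median of -0.18, Pantr1 was at 0.62, Pou3f2 at 0.24, Pou3f1 at 0.00, Pou3f3 at -0.15 and the Pou3f2 mRNA probe at -0.23. Pantr1 was at 0.93 with rostral RNA in Cy3 alone and at 0.70 with rostral RNA in Cy5 alone; Pou3f3 was at -0.11 and 0.18. Over all features, rostral against caudal cortex passed 5 features among those measured in all 6 pools and 14 when all 12 arrays were fitted with pool as random block (9 higher and 5 lower rostrally), against 0; the cause was not tested. No alternative passed a strain difference of a member or of any feature. The sign of these small differences changed: Pou3f3 at -0.01 with arrays not centred and -0.11 with Cy5 alone, Pou3f1 at -0.01 with Cy5 alone, and Pantr1 at 0.34 with arrays scaled and 0.07 with Cy3 alone. Others moved in size: Pantr2 was at 0.47 and Pou3f2 at 0.44 with arrays scaled, and Pou3f2 was at 0.43 with Cy3 alone and 0.03 with Cy5 alone, against reported values of 0.17 for Pantr2 and 0.23 for Pou3f2. Leaving out 1 pool at a time gave from -0.04 to 0.37 for Pou3f1, 0.15 to 0.34 for Pou3f2, -0.52 to 0.54 for Pou3f3, -0.07 to 0.05 for Pantr1 and -0.08 to 0.60 for Pantr2. Same-numbered pools of the strains share only a number, with correlations of their deviations of -0.14, 0.06 and 0.00; with the replicate block 0 features passed the strain difference and 741 had an unadjusted p under 0.05, against 879. No spot signals were used, so signal over background is unknown, and having 3 pools per strain limits the precision.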
